A study of Mus musculus with 16 samples.

Results

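Bicuculline changed gene expression in hippocampal cultures with and without knockdown of Dnmt3a1, and the question asked here is whether it did so to the same extent. The measure is a difference of differences for each gene, called the interaction: the log2 response to bicuculline with Dnmt3a1-shRNA2 minus the log2 response with Control-shRNA. It uses all 16 of the 16 libraries, 4 from each of 4 groups. The groups were Control-shRNA at baseline, Control-shRNA after 4 h of bicuculline, Dnmt3a1-shRNA2 at baseline and Dnmt3a1-shRNA2 after 4 h of bicuculline. All were primary cultures from the hippocampi of newborn C57Bl/6N mice, infected with recombinant adeno-associated viruses. Bicuculline was applied at 50 µM. The shRNAs were driven by the U6 promoter, and the knockdown rests on 1 shRNA sequence, whose number comes from the study's text and not from the sample labels. Every library is a whole culture, so levels average over all cell types present, and in such bulk RNA fewer cells of a type and less RNA per cell cannot be told apart.

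Dnmt3a1 is a de novo DNA methyltransferase, an enzyme that places methyl groups on cytosines that carried none, and it is the long product of the Dnmt3a gene. Bicuculline blocks GABA-A receptors. Removing this inhibition makes cultured neurons fire in synchronous bursts, calcium enters, and transcription factors such as CREB switch on a first wave of immediate early genes, among them Fos, Npas4 and Arc. A second wave follows within hours and holds growth factors, neuropeptides and proteins of the synapse. The files analysed here hold RNA levels and no DNA methylation.

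Total counts ran from 28912697 to 29586355 read pairs per library, so depth hardly differed between groups. Each of the 24 pairs of libraries within a group differed by more than counting noise, with chi-square statistics of 7.14 to 39.8 per degree of freedom, so all 16 were kept as separate samples. The study describes the 4 libraries of a group as separate neuronal preparations, and the labels do not say whether a replicate number marks the same preparation in every group. Dnmt3a (chromosome 12, 3806007 to 3914443, plus strand) was read at 311, 293, 321 and 324 CPM (read counts scaled to the size of the library) with Control-shRNA at baseline and at 338, 333, 325 and 311 CPM with bicuculline. With Dnmt3a1-shRNA2 it was read at 45.5, 39.4, 45.1 and 48.1 CPM at baseline and at 45.1, 47.8, 44.5 and 43.8 CPM with bicuculline. The 8 knockdown libraries lay far below the 8 control libraries in both conditions, and the interaction of Dnmt3a was -0.04 (SE 0.082, adjusted p = 0.944). No difference in knockdown depth between baseline and bicuculline was detected, and the gene-level count also includes the short isoform Dnmt3a2. Neuronal markers such as Snap25 and Tubb3 were abundant, with a sum over 6 genes of 6120 to 8440 CPM. Astrocyte markers summed to 227 to 626 CPM, and 5 of the 6 microglial markers stayed under 1 CPM.

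Of 17222 genes tested, 3 were called for the interaction at an adjusted p-value under 0.05, which is 0.0174% of the genes. Arpp21 and Foxp1 responded more strongly with Dnmt3a1-shRNA2, and these 2 genes are 0.0116% of all tested. Map3k12 fell more strongly with Dnmt3a1-shRNA2 and is the only gene called lower, or 0.00581%. The test was edgeR's quasi-likelihood test with the replicate number 1 to 4 as a block and Benjamini-Hochberg adjustment over all genes tested. In this same fit, bicuculline raised 25.1% and lowered 25.8% of the genes with Control-shRNA. With Dnmt3a1-shRNA2 it raised 25.8% and lowered 28.7%. The knockdown itself raised 14.7% and lowered 12.9% of the genes at baseline, and raised 14.6% and lowered 15.3% in bicuculline. The share called for the interaction is thus far smaller than the share called in any of the single comparisons in this fit. The interaction combines 4 group means and has a larger SE than a single comparison (for Arpp21, 0.107 against 0.076 for the control response). It therefore has less power at the same threshold, and the shares do not measure how much the response changed.

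Arpp21 (ENSMUSG00000032503.18, chromosome 9, 112065091 to 112235938, minus strand) encodes a cAMP-regulated phosphoprotein that binds RNA and is abundant in forebrain neurons. With Control-shRNA it was read at 277, 260, 271 and 284 CPM at baseline and at 713, 460, 551 and 525 CPM with bicuculline. The corresponding levels with Dnmt3a1-shRNA2 were 145, 143, 142 and 141 CPM at baseline and 567, 489, 459 and 529 CPM with bicuculline. The baseline groups did not overlap, and the bicuculline groups did. Its response was 1.03 (SE 0.076) on the log2 scale with Control-shRNA and 1.83 (SE 0.078) with Dnmt3a1-shRNA2, so the interaction was 0.80 (SE 0.107, 95% interval 0.58 to 1.03, adjusted p = 0.0149). The knockdown lowered Arpp21 (-0.93, SE 0.076) at baseline, whereas the difference in bicuculline was -0.13 (SE 0.075, adjusted p = 0.209). The interaction computed within each replicate number was 0.60, 0.96, 0.67 and 1.02.

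Foxp1 (ENSMUSG00000030067.17, chromosome 6, 98925338 to 99522721, minus strand) encodes a forkhead transcription factor of cortical and hippocampal neurons. Its levels with Control-shRNA were 54.8, 55.0, 63.4 and 61.2 CPM at baseline and 81.1, 88.3, 85.2 and 83.0 CPM with bicuculline. The corresponding levels with Dnmt3a1-shRNA2 were 38.9, 38.2, 44.8 and 42.1 CPM and 92.7, 81.7, 90.4 and 81.5 CPM. It showed the same shape as Arpp21, with separate baseline groups and overlapping bicuculline groups. The response was 0.53 (SE 0.059) with Control-shRNA and 1.08 (SE 0.060) with Dnmt3a1-shRNA2, a difference of 0.55 (SE 0.084, 95% interval 0.37 to 0.73, adjusted p = 0.0310). The knockdown lowered Foxp1 (-0.51, SE 0.060) at baseline, and the difference in bicuculline was 0.04 (SE 0.059, adjusted p = 0.697).

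Map3k12 (ENSMUSG00000023050.9, chromosome 15, 102497646 to 102517064, minus strand) encodes the dual leucine zipper kinase, which acts upstream of JNK in the response of axons to injury. With Control-shRNA its levels were 141, 133, 126 and 135 CPM at baseline and 111, 103, 98.4 and 108 CPM with bicuculline. With Dnmt3a1-shRNA2 they were 81.2, 71.1, 66.2 and 76.7 CPM at baseline and 35.8, 40.3, 40.2 and 39.5 CPM with bicuculline. No group overlapped another. Bicuculline lowered Map3k12 (-0.35, SE 0.057) with Control-shRNA and more so (-0.92, SE 0.060) with Dnmt3a1-shRNA2, and the interaction was -0.57 (SE 0.082, 95% interval -0.74 to -0.40, adjusted p = 0.0216). Here the knockdown effect grew in bicuculline, from -0.86 (SE 0.057) at baseline to -1.43 (SE 0.060).

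**Figure D1:**
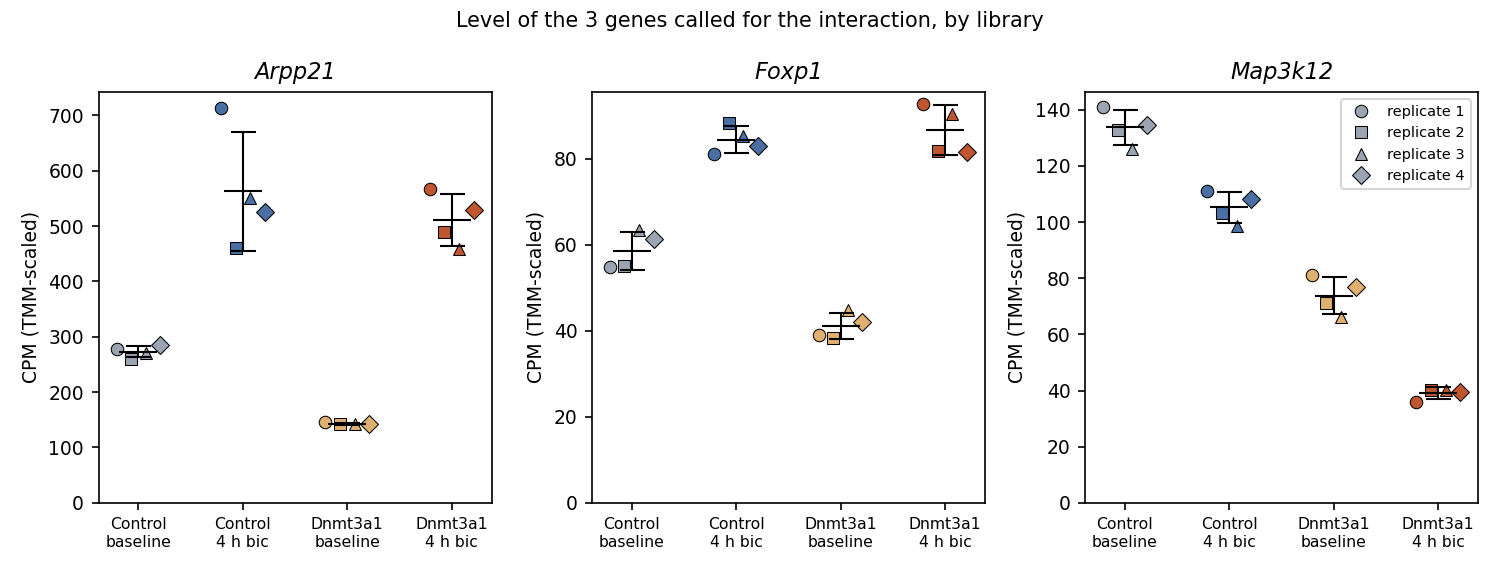
The vertical axis of each panel is the TMM-scaled CPM of 1 gene, each point is 1 library, its symbol is the replicate number, and bars are the mean and SD of 4 libraries. Arpp21 and Foxp1 start lower with Dnmt3a1-shRNA2 (means of 143 and 41.0 CPM against 273 and 58.6 CPM) and reach the control range in bicuculline, whereas Map3k12 ends at 39.0 against 105 CPM.

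These calls depend on the block. Without the replicate number, edgeR called 0 genes (852, or 4.95%, at an unadjusted p under 0.05) and voom with limma called 0 (858, or 4.98%). DESeq2 without the block called 17, including the same 3, and had 4.5% of the genes at an unadjusted p under 0.05. About this share falls under 0.05 by chance when no gene differs, whereas edgeR with the block had 9.08%. Leaving out 1 library at a time, with the block kept, gave 0 to 29 called genes. The count was 0 without replicate 2, 3 or 4 of Control-shRNA at baseline and without replicate 1 or 4 of Dnmt3a1-shRNA2 at baseline. Of the 16 fits with 1 library fewer, Map3k12 was called in 10, Arpp21 in 9 and Foxp1 in 5, and the sign of all 3 was the same in all of these fits. In the fits without a whole replicate number, Arpp21 was called in 2, Map3k12 in 1 and Foxp1 in 0.

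The threshold falls inside a run of closely spaced genes. The 11 genes just outside it share an adjusted p of 0.0523. Among them, Trim71 (an RNA-binding ubiquitin ligase, interaction 1.0, SE 0.173), Rnf213 (a large ubiquitin ligase, 1.02, SE 0.182), Fryl (0.61, SE 0.109), Adam9 (a membrane metalloprotease, 0.47, SE 0.086) and Chka (choline kinase, 0.44, SE 0.079) had positive values. Rbm11 (a splicing regulator, -1.04, SE 0.181), Rspo3 (an enhancer of Wnt signalling, -1.0, SE 0.174), Ino80c (-0.50, SE 0.091), Tppp (-0.46, SE 0.0835), Mapk4 (-0.46, SE 0.078) and Cc2d1a (-0.37, SE 0.066) had negative ones. All 11, like the 3 called genes, had the same sign in the 4 replicate numbers. A small p in the blocked fit nearly fixes this: the sign was shared in 601 of the 720 positive and 707 of the 844 negative genes at an unadjusted p under 0.05, against 20.3% of all genes tested, so nothing is read from it.

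**Figure D2:**
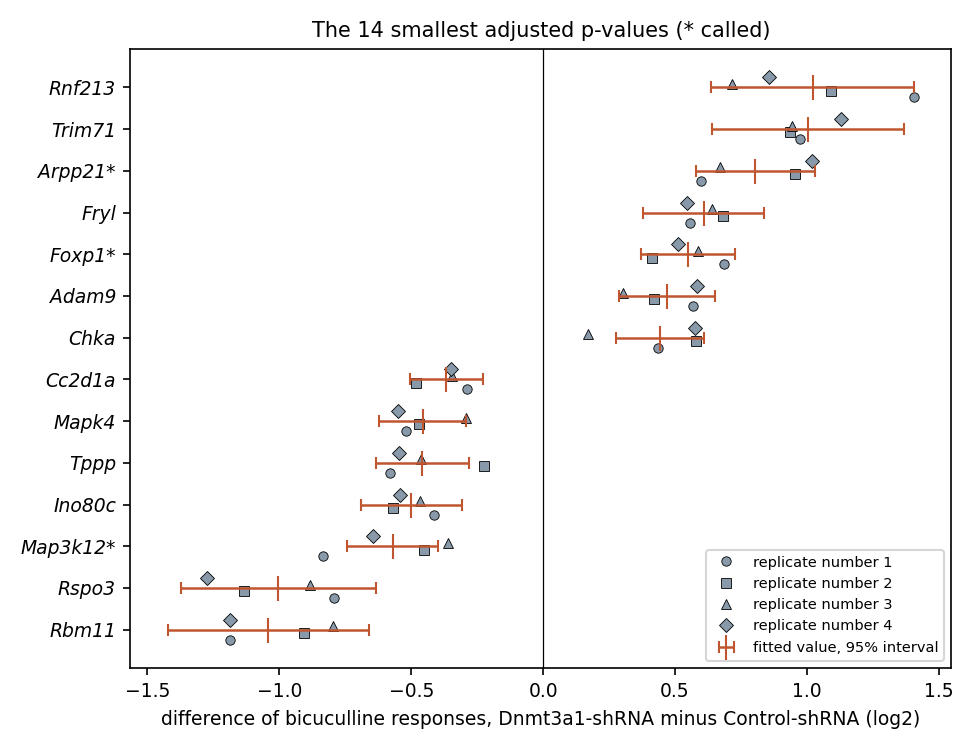
The horizontal axis is the interaction on the log2 scale for the 14 genes with the smallest adjusted p, with 1 point for each replicate number and the fitted value with its 95% interval. All 4 points of each gene lie on one side of 0, from 0.60 to 1.02 for Arpp21, for example.

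Rspo3 had a response of -0.95 with Dnmt3a1-shRNA2, which was called, and of 0.06 with Control-shRNA, which was not. It was read at 14.4, 12.8, 13.2 and 15.2 CPM with Control-shRNA at baseline and at 12.7, 16.6, 15.03 and 13.7 CPM with bicuculline. With Dnmt3a1-shRNA2 it was read at 15.9, 13.8, 15.7 and 14.3 CPM at baseline and at 8.04, 8.11, 9.62 and 5.28 CPM with bicuculline. The 3 other groups overlapped, and the knockdown libraries in bicuculline lay below all of them. Trim71 had an interaction of the opposite sign and another shape. Its response was 0.28 (SE 0.119) with Control-shRNA, which was not called, and 1.28 (SE 0.126) with Dnmt3a1-shRNA2, which was. At baseline its knockdown libraries (2.16 to 3.20 CPM) lay below the control libraries (3.62 to 4.99 CPM). The bicuculline groups overlapped, as for Arpp21 and Foxp1. The knockdown effect on Trim71 was -0.76 (SE 0.128) at baseline and 0.24 (SE 0.116) in bicuculline, where it was not called.

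Relaxed to an adjusted p under 0.1, a limit chosen after the values were seen, the list held 49 genes, 33 with a positive and 16 with a negative interaction. Because the interaction and the responses come from the same libraries, the shapes given next are a description. Of the 33, 23 were called as raised by bicuculline with both shRNAs, 4 (Trim71, Taf4b, Gm47031 and Olfr509) only with Dnmt3a1-shRNA2, 3 (Mstn, Sh3glb1 and Prkaa1) were called as lowered only with Control-shRNA, and 3 (Stard4, Zfp945 and Ublcp1) were lowered with Control-shRNA and raised with Dnmt3a1-shRNA2. Of the 16, 10 were called as lowered with both shRNAs, 3 (Rspo3, Mfap3 and Itfg1) only with Dnmt3a1-shRNA2, 2 (Mapk4 and Nppc) were raised with both, and 1 (Ado) was raised only with Control-shRNA. The most frequent shape in these 49 genes was a larger change in the direction that the controls also took. Of all 7745 genes with a positive interaction, 2222 were raised with both shRNAs, as were 375 of the 720 at an unadjusted p under 0.05. Of all 9477 with a negative interaction, 2822 were lowered with both, as were 427 of the 844 at an unadjusted p under 0.05.

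The knockdown effects of these 33 genes are given as a description, since a positive interaction by construction means a knockdown effect that is lower at baseline than in bicuculline. At baseline 30 of the 33 had a negative value, with a median of -0.52, and in bicuculline 12 did, with a median of 0.10. Of all 7745 genes with a positive interaction, 4686 had a negative effect at baseline and 2810 in bicuculline, and of the 720 at an unadjusted p under 0.05 these were 561 and 178. In 13 of the 33 the knockdown lowered the gene at baseline and no effect was called in bicuculline, as for Arpp21 and Foxp1. The same held for 657 of the 7745 and for 179 of the 720. For the 16 genes with a negative interaction, the median went from -0.17 at baseline to -0.85 in bicuculline. Over all 9477 genes with a negative interaction it went from 0.06 to -0.07. Over the 844 at an unadjusted p under 0.05 it went from 0.07 to -0.21.

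Stard4, a carrier of cholesterol between membranes, was read at 256, 135, 131 and 233 CPM with Control-shRNA at baseline and at 173, 115, 147 and 166 CPM with bicuculline. In the knockdown it was read at 192, 99.1, 96.7 and 186 CPM at baseline and at 236, 162, 131 and 220 CPM with bicuculline. All 4 groups overlapped, and replicates 1 and 4 were the highest libraries within each group. Its interaction was 0.69 (SE 0.147, adjusted p = 0.0915).

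Mstn, the myostatin gene, encodes a secreted inhibitor of growth best known from muscle. Its levels were 2.80, 2.84, 3.25 and 3.73 CPM with Control-shRNA at baseline and 1.19, 2.24, 1.72 and 1.82 CPM with bicuculline. They were 8.12, 8.53, 9.53 and 10.1 CPM with Dnmt3a1-shRNA2 at baseline and 10.2, 10.7, 10.7 and 8.05 CPM with bicuculline. Bicuculline lowered Mstn (-0.85, SE 0.165) with Control-shRNA, and the response with Dnmt3a1-shRNA2 was 0.13 (SE 0.122, adjusted p = 0.376). The interaction of 0.99 (SE 0.206) had an adjusted p of 0.0915.

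Among genes of at least 10 CPM, the responses were close to each other. For the 9238 genes whose mean reached 10 CPM, the response with Dnmt3a1-shRNA2 followed that with Control-shRNA with a Pearson r of 0.977 and a slope of 1.08, and the slope of the reverse regression was 0.888. The SD of the responses was 0.636 with Dnmt3a1-shRNA2 and 0.578 with Control-shRNA. These responses share no library, but genes are not independent replicates, so no p-value is given. Within the replicate numbers 1 to 4 the slope was 1.02, 1.06, 1.0 and 1.08. The reverse slope was 0.88, 0.785, 0.92 and 0.85, and r was 0.95, 0.91, 0.96 and 0.96. Over all 17222 genes tested, r was lower (0.880), the slope was 0.943 and the reverse slope 0.822. A slope above 1 was thus not seen over all genes.

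**Figure D3:**
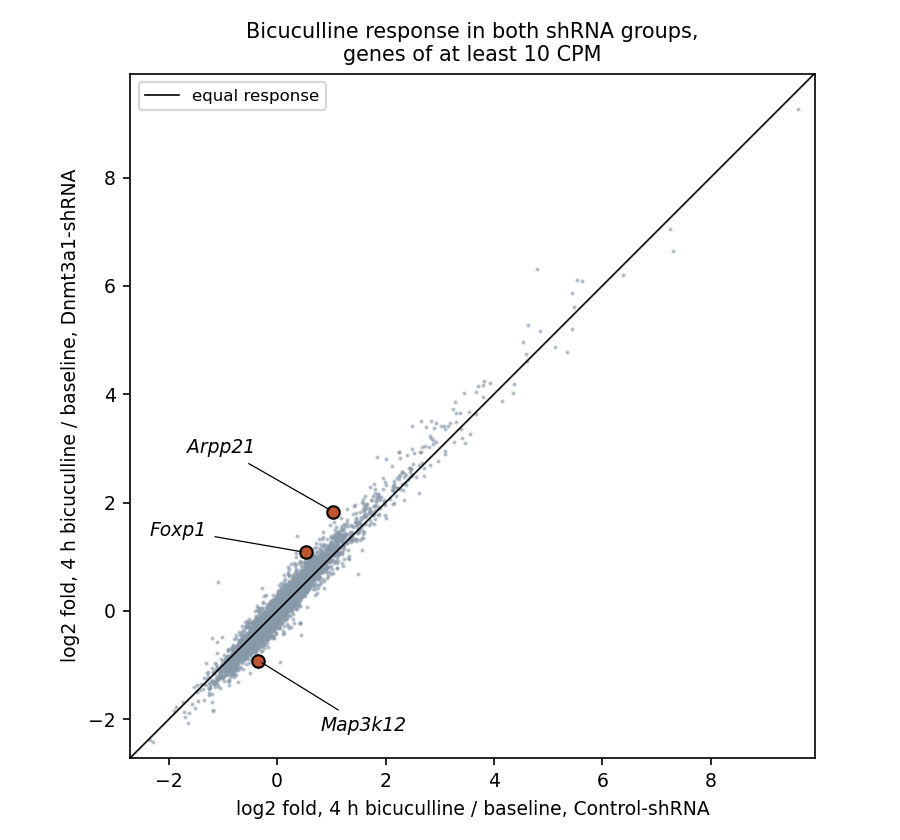
Each point is 1 of the 9238 genes of at least 10 CPM, with its log2 response to bicuculline with Control-shRNA on the horizontal and with Dnmt3a1-shRNA2 on the vertical axis. The cloud follows the line of equal response (r of 0.977), with Arpp21 and Foxp1 above it and Map3k12 below it.

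A gene that was not called is not thereby shown to respond alike, so the 95% interval of each interaction was set against a bound of 0.5 either side of 0. It lay inside this bound for 10128 genes (58.8%). The share depended on level: 96.2% of the genes over 100 CPM, 91.6% of those at 10 to 100 CPM, 33.5% of those at 1 to 10 CPM and 0.0898% of those under 1 CPM. For most genes under 10 CPM, a difference of this size was thus not excluded at this depth and number of replicates. At an unadjusted p under 0.05 there were 1564 genes (9.08%), 720 with a positive interaction (4.18%) and 844 with a negative one (4.9%). The balance turned with the scaling, to 786 positive and 754 negative with DESeq2 size factors, 798 and 698 with library sizes only, and 1046 and 661 with offsets for GC content and length. The shares from TMM scaling are the background for the counts of list members that follow. Where a list is also counted in a refit, the background moved too. Over all genes there were 394 positive and 458 negative without the replicate block. The counts were 586 and 620 without replicate number 4, and 806 and 590 without replicate number 3. A change in a list is thus partly a change of this background.

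Gene lists were read by these unadjusted counts and by their median, beside the median of -0.02 over all genes tested. In this edgeR fit no list member was called. DESeq2 with the same block, which called 102 genes in all, called 4 neuropeptides, 2 of the genes that the study names, and 1 each of the effectors, neuropeptide receptors, activin pathway, semaphorins, potassium channels and cholesterol genes. edgeR with GC and length offsets called 2 neuropeptides (Pnoc and Cort), Mstn, Kcng1 and Peak1, which is in the study's list for cell-substrate adhesion. Of the 20 immediate early transcription factors, 3 had a positive and 2 a negative interaction at an unadjusted p under 0.05, and the median was 0.14. These counts were 0 and 1 without the replicate block, and also 0 and 1 without replicate number 4. The highest value was that of Maff (0.45, SE 0.202, adjusted p = 0.534) and the lowest that of Npas4 (-0.66, SE 0.277, adjusted p = 0.489), a neuron-specific factor induced by calcium entry. Npas4 was read at 6.12, 8.15, 15.7 and 11.6 CPM with Control-shRNA at baseline and at 2002, 1617, 1560 and 1470 CPM with bicuculline. In the knockdown Npas4 was read at 18.9, 17.2, 16.1 and 11.3 CPM at baseline and at 1831, 1594, 1293 and 1591 CPM with bicuculline. The bicuculline groups overlapped, and the largest difference lay in replicate 1 at baseline. Fos had an interaction of -0.19 (SE 0.232, adjusted p = 0.858).

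Activity-induced effectors, a list that mixes first-wave genes such as Arc with later ones, had a median of 0.24. At an unadjusted p under 0.05, 7 of the 22 were positive and 1 negative. The 7 became 2 without the replicate block, 2 without replicate number 4 and 11 without replicate number 3. Over all genes, the 720 positive ones became 394, 586 and 806 in these refits. The positive members were Ptgs2, which encodes cyclooxygenase-2 (1.52, SE 0.441, adjusted p = 0.271), Tnfaip6 (0.91), Vgf, Pcsk1, Nptx2 (0.43), Bdnf and Scg2 (0.27). Vgf is a neurotrophin-induced precursor of secreted peptides (0.80, SE 0.259, adjusted p = 0.343). Pcsk1, a convertase that cuts such precursors, had 0.55 (SE 0.147, adjusted p = 0.217). Ptgs2 was read at 5.07, 2.22, 6.30 and 6.45 CPM with Control-shRNA at baseline and at 201, 99.4, 124 and 145 CPM with bicuculline. In the knockdown its levels were 0.738, 0.654, 1.30 and 0.606 CPM at baseline and 106, 63.9, 41.2 and 62.2 CPM with bicuculline. Ptgs2 was lower with Dnmt3a1-shRNA2 at baseline in every library, and the bicuculline groups overlapped only at the edge. Bdnf, a neurotrophin, had 0.38 (SE 0.162, adjusted p = 0.498), and the negative member was the kinase gene Sik1 (-0.16). Arc, which encodes a regulator of AMPA receptor endocytosis, had 0.46 (SE 0.299, adjusted p = 0.688) and was positive in the 4 replicate numbers. The extreme fitted values of this list belong to Ifi202b, with 0 to 1 counts per library at baseline in both shRNA groups, and to Serpinb2, with 0 to 9. Without Ifi202b the median was 0.23.

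Neuropeptides are the list with the most members at an unadjusted p under 0.05: 9 positive and 2 negative of 19 tested, with a median of 0.15. Without the replicate block there were 5 positive and 1 negative, and the median was 0.15. The median ranged from 0.20 to 0.29 when 1 replicate number was left out. Several of these peptides are made by GABAergic interneurons. The positive members were Crh, Cort, Pnoc, Crhbp, Prok2, Tac1, Penk, Sst and Npy, and the negative ones were Nppc and Grp. All positive members but Penk and Sst are also in lists that the study chose on these same libraries. They are counted again under those lists below, and this count is not independent evidence. Pnoc, which encodes the precursor of nociceptin, was read at 68.3, 52.9, 58.5 and 82.9 CPM with Control-shRNA at baseline and at 167, 144, 156 and 168 CPM with bicuculline. With Dnmt3a1-shRNA2 it was read at 37.8, 41.8, 41.6 and 42.0 CPM at baseline and at 157, 137, 142 and 166 CPM with bicuculline. As for Arpp21, the baseline groups were apart and the bicuculline groups overlapped. Its interaction was 0.59 (SE 0.109, adjusted p = 0.0571).

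Crh, the gene of corticotropin-releasing hormone, had the largest value of the list (1.31, SE 0.343, adjusted p = 0.207). It was read at 0.395, 0.710, 0.639 and 0.713 CPM with Control-shRNA at baseline and at 2.09, 2.41, 2.37 and 1.93 CPM with bicuculline. The levels with Dnmt3a1-shRNA2 were 0.597, 0.719, 0.667 and 0.572 CPM at baseline and 8.27, 6.22, 4.06 and 4.43 CPM with bicuculline. Here the baseline groups overlapped and the bicuculline groups did not, the opposite of Pnoc. Crhbp, whose product binds and buffers this hormone, had 0.55 (SE 0.158, adjusted p = 0.267). Cort, the gene of cortistatin, had 0.60 (SE 0.135, adjusted p = 0.118), and Sst, the gene of somatostatin, had 0.33 (SE 0.0957, adjusted p = 0.285).

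Nppc, which encodes C-type natriuretic peptide, went the other way (-0.80, SE 0.171, adjusted p = 0.0915). Its levels with Control-shRNA were 7.34, 6.82, 7.48 and 7.98 CPM at baseline and 27.6, 19.0, 19.0 and 18.3 CPM with bicuculline. With Dnmt3a1-shRNA2 they were 6.99, 8.21, 7.53 and 5.59 CPM at baseline and 12.2, 10.03, 11.9 and 11.5 CPM with bicuculline. The baseline groups overlapped, and in bicuculline every knockdown library lay below every control library.

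A shorter list of 10 genes, which the study grouped under neuropeptide signalling, was chosen by the study on these same libraries. It is therefore not independent evidence of its direction. All 10 values were positive, 9 of them at an unadjusted p under 0.05, and the median was 0.45, or 0.40 without Galr1, whose counts were 0, 4, 3 and 1 with Control-shRNA and 0, 1, 1 and 0 with Dnmt3a1-shRNA2 at baseline. edgeR called 0 of them in this fit, 2 with GC and length offsets and 1 without replicate number 3, and DESeq2 with the block called 3. Without the replicate block, 7 of the 10 were at an unadjusted p under 0.05. Npbwr1, a receptor for neuropeptides B and W, had 0.86 (SE 0.216, adjusted p = 0.190), Prok2 0.50 (SE 0.190, adjusted p = 0.439), Tac1, the substance P precursor, 0.40 (SE 0.132, adjusted p = 0.357), Npy 0.29 (SE 0.130, adjusted p = 0.530) and the somatostatin receptor Sstr1 0.29 (SE 0.088, adjusted p = 0.308). Glra2, a glycine receptor subunit, was the lowest with 0.04 (SE 0.079, adjusted p = 0.944). Its value was -0.02 without replicate 2 of Control-shRNA in bicuculline, so the sign of this gene rests on that library.

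**Figure D4:**
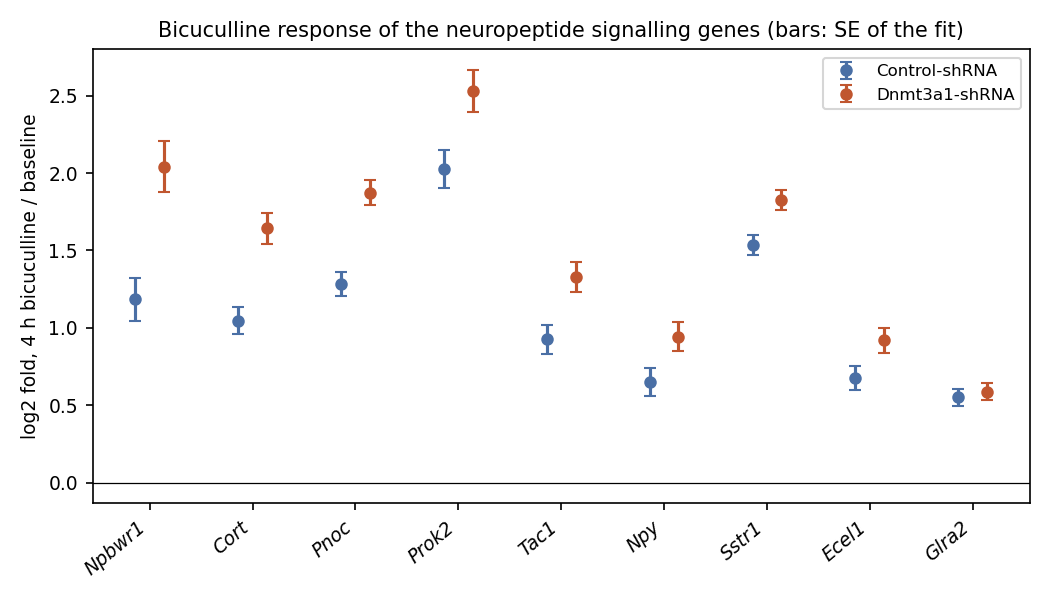
The vertical axis is the log2 response to bicuculline of 9 of the 10 genes grouped under neuropeptide signalling, with bars for the SE of the fit, and Galr1 is left out because of its baseline counts of 0 to 4. Each gene lies higher with Dnmt3a1-shRNA2 than with Control-shRNA, by 0.86 for Npbwr1 and 0.04 for Glra2, and edgeR with the block called 0 of these differences, against 3 of the 10 genes with DESeq2.

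The summed level of 5 markers of GABAergic neurons (Gad1, Gad2, Slc32a1, Dlx1 and Dlx2) was 1260 to 1600 CPM with Control-shRNA at baseline and 1850 to 2330 CPM with bicuculline, against 985 to 1280 CPM and 1580 to 2080 CPM with Dnmt3a1-shRNA2. Its own difference of differences was 0.10 on average over the replicate numbers, from -0.09 to 0.23. None of the 5 had an unadjusted p under 0.05 in this fit (median 0.07), but 2 did with GC and length offsets (median 0.14) and 3 did without replicate number 3 (median 0.18), all positive. The part of this sum in the values of the interneuron peptides was not tested. Genes of GABA synthesis, transport and GABA-A receptors, of which Gad2 was the highest (0.16, SE 0.0891, adjusted p = 0.622) and Slc6a11 the lowest (-0.20, SE 0.10, adjusted p = 0.589), had 0 of 20 members at an unadjusted p under 0.05. For 19 of these 20 the interval lay within 0.5 either side of 0.

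Of 23 tested neuropeptide receptors, 5 were positive and 2 negative at an unadjusted p under 0.05, with a median of 0.01, or -0.03 without Galr1. The somatostatin receptor Sstr3 was the lowest (-0.41, SE 0.157, adjusted p = 0.447). Feedback inhibitors of MAP kinases had 3 positive and 0 negative of 14, with Dusp5, a phosphatase of nuclear ERK, the highest (0.55, SE 0.182, adjusted p = 0.365) and Errfi1 the lowest (-0.16, SE 0.119, adjusted p = 0.739). The positive inhibitors numbered 3 without the replicate block and 1 without replicate number 4. In the activin, myostatin and TGF-beta pathway, 3 of 30 were positive, led by Mstn, and 1 negative, the activin receptor Acvr1b (-0.24, SE 0.099, adjusted p = 0.488). Growth factor ligands and receptor tyrosine kinases had 2 positive and 3 negative of 36, from the VEGF receptor gene Kdr (0.98, SE 0.334, adjusted p = 0.382) to Pdgfrb (-0.61, SE 0.207, adjusted p = 0.384). Both had means near 1 or 2 CPM.

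Ion channel lists split between the directions. Voltage-gated potassium channels had 4 positive and 4 negative of 30, with a median of -0.02. Kcng1, a modifier subunit of Kv2 channels, was read at 94.98, 79.7, 89.9 and 64.8 CPM with Control-shRNA at baseline and at 35.1, 44.0, 36.5 and 28.5 CPM with bicuculline. Knockdown cultures gave 74.1, 73.0, 81.3 and 67.9 CPM at baseline and 19.4, 20.3, 24.5 and 18.2 CPM with bicuculline. Only the bicuculline groups were apart, and the interaction was -0.66 (SE 0.124, adjusted p = 0.0571). Kcnh5 was the highest of this list (0.71, SE 0.297, adjusted p = 0.493). Ionotropic glutamate receptors and their auxiliary subunits had 1 positive and 3 negative of 30, from Grin3b (0.77, SE 0.555, adjusted p = 0.727) at 0.431 CPM to Cnih3 (-0.24, SE 0.0707, adjusted p = 0.276).

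Metabolic and stress lists follow. Cholesterol synthesis had 4 positive and 0 negative of 24, with a median of 0.09, and Idi1, an isomerase of the pathway, was the highest (0.31, SE 0.112, adjusted p = 0.401). The 4 positive genes became 1 without the replicate block and 9 with GC and length offsets. The unfolded protein and integrated stress response also had 4 positive and 0 negative of 24, from Ppp1r15a, a subunit of the eIF2 alpha phosphatase (0.50, SE 0.149, adjusted p = 0.285), to Trib3 (-0.20, SE 0.360, adjusted p = 0.923). Circadian clock genes had 1 positive and 1 negative of 19, from Per2 (0.23, SE 0.108, adjusted p = 0.545) to Ciart (-0.32, SE 0.202, adjusted p = 0.676). The machinery of DNA methylation and demethylation had 2 positive and 0 negative of 19. These were Tet2, which oxidises methylcytosine (0.36, SE 0.128, adjusted p = 0.401), and Gadd45a (0.43). Without the replicate block, 0 of the 19 were at an unadjusted p under 0.05. Dnmt3b had a mean of 0.296 CPM (0.89, SE 0.512, adjusted p = 0.651), Uhrf1, the lowest, one of 0.468 CPM (-0.43, SE 0.426, adjusted p = 0.814), and Dnmt1 had -0.15 (SE 0.079, adjusted p = 0.584).

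Semaphorins, plexins and neuropilins had 2 positive and 3 negative of 29, from Sema3b (1.02, SE 0.373, adjusted p = 0.415), at a mean of 0.533 CPM, to Sema4f (-0.42, SE 0.129, adjusted p = 0.297). Nrp1, a co-receptor for class 3 semaphorins and the gene that the study followed up, was read at 138, 124, 123 and 151 CPM with Control-shRNA at baseline and at 222, 203, 200 and 236 CPM with bicuculline. Knockdown cultures gave 70.5, 51.1, 55.7 and 70.6 CPM at baseline and 129, 134, 116 and 124 CPM with bicuculline. The knockdown groups lay below the control groups in both conditions. Bicuculline raised Nrp1 by 0.68 (SE 0.068) and by 1.03 (SE 0.070), and the interaction was 0.35 (SE 0.0965, 95% interval 0.14 to 0.55, adjusted p = 0.239). Nrp1 was called by DESeq2 with the block and by edgeR without the filter on low counts (adjusted p = 0.00802), and in none of the other 32 refits. Without the filter edgeR called 320 genes, more than in any other fit.

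Of the other genes that the study named, Alkal2 had 0.08 (SE 0.186, adjusted p = 0.951), Cacng5 had -0.17 (SE 0.165, adjusted p = 0.803) and Trpc6 had 0.17 (SE 0.237, adjusted p = 0.881). Over the 34 refits, Crhbp was called in 4, Arc and Npas4 in 1 each, and Alkal2, Cacng5, Trpc6, Npy and Fos in 0. The study's lists for signalling receptor activity and for cell-substrate adhesion, also chosen on these libraries and so no independent evidence, had 3 positive and 1 negative of 12 (median -0.03) and 6 positive and 1 negative of 17 (median 0.10). The first median was -0.13 without Gprc5a, which had under 3 counts summed over a group, and ran from -0.15 to 0.12 when 1 replicate number was left out. The second ran from 0.02 to 0.35 in the same way, and without the block its positive members fell to 2. DESeq2 with the block called 1 and 2 members, and edgeR with GC and length offsets called 0 and 1 (Peak1). Areg (-0.31, SE 0.50, adjusted p = 0.906) was the lowest of the first and Thbs1 (-0.45, SE 0.404, adjusted p = 0.790) of the second.

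**Figure D5:**
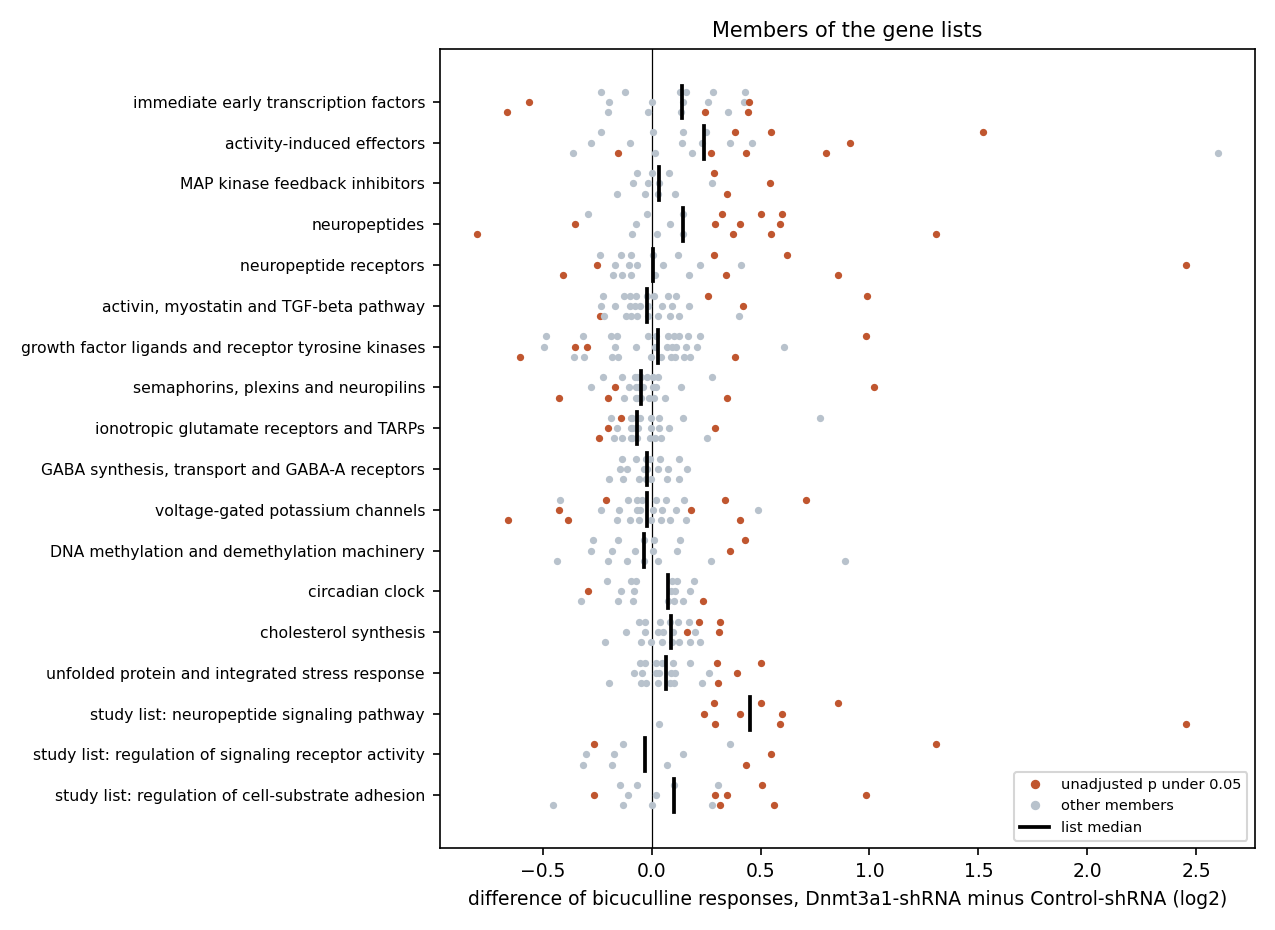
The horizontal axis is the interaction on the log2 scale, each point is 1 tested member of the list named on the vertical axis, coloured where its unadjusted p is under 0.05, and black bars are medians. Medians run from -0.07 for ionotropic glutamate receptors to 0.45 for the study's neuropeptide signalling genes, and edgeR with the block called 0 members.

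The interaction varied with the composition of the transcripts. Over the 9238 genes of at least 10 CPM, its Spearman correlation with the GC content of the longest transcript was -0.24 and with its length 0.15, across genes and with no test. In the quintile lowest in GC content, 147 genes were positive and 60 negative at an unadjusted p under 0.05, so 71.0% were positive. In the highest quintile 34 were positive and 177 negative, or 16.1%. The libraries differed in the same property: the correlation of a library's deviation from its group with GC content was 0.54, 0.50 and 0.60 for replicate 2 of the other groups, and 0.05 for replicate 2 of Dnmt3a1-shRNA2 in bicuculline. For replicate 3 it was -0.11, 0.02 and -0.19 against 0.32, for replicate 4 it was -0.53, -0.28 and -0.41 against 0.06, and for replicate 1 it was 0.02, -0.31 and -0.28 against -0.37. Deviations from a group mean average out within the group, so these values describe the spread among replicates and not the difference between groups. With an offset for GC content and length in each library, added after the data were seen, 56 genes were called, 44 of them positive, including Arpp21 (0.83, adjusted p = 0.00567), Foxp1 (0.53, adjusted p = 0.00372) and Map3k12 (-0.55, adjusted p = 0.00776). The share of positive genes was then 60.9% in the lowest and 50% in the highest quintile. These offsets remove from each library any trend with GC content or length, whatever its source. The flatter shares are therefore fixed by the method, and nothing is read from them. With these offsets and no replicate block, 0 genes were called by edgeR (1036 at an unadjusted p under 0.05).

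RefSeq start sites on GRCm38.p6 matched 12114 of the 17184 symbols carried by a single tested gene, and the 250 bases before the most 5′ start of each were searched. Among genes of at least 10 CPM, the quintile with the most CpG dinucleotides (26 to 56) had 87 positive and 86 negative genes at an unadjusted p under 0.05, or 50.3% positive. The next to lowest quintile (10 to 15) had 29.3%, the lowest share. The cAMP response element TGACGTCA, searched on both strands, was present in 13 of the 300 positive genes (4.33%), in 8 of the 512 negative ones (1.56%) and in 226 of all 7199 (3.14%). The AP-1 motif TGANTCA was present in 3.33%, 2.93% and 3.5%. Over all 27025 genes with a start site, 1.60% held the first and 6.85% the second motif. A match is a description of the sequence, and binding was not measured.

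The mitochondrial share of counts ran from 2.73% to 6.60%, and its own difference of differences within the replicate numbers was -0.50, 0.25, 0.31 and 0.58 percentage points. Its part in the interaction was not tested. Among the marker lists, neurons had 1 of 6 members at an unadjusted p under 0.05 (Tubb3, -0.34), and the lists for the other cell types and for proliferation and interferon had 0. All 4 proliferation markers (Mki67, Top2a, Ccnb1 and Cdk1) were under 1 CPM, as were 4 of 6 interferon genes and the vessel markers Pecam1 and Cldn5.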

How the data were processed

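RNA from 16 primary mouse hippocampal cultures was sequenced in read pairs. Per the labels and the study's methods, the authors trimmed the reads, assigned them with kallisto on GRCm38.p6 and deposited estimated counts and TPM (reads scaled to transcript length and library size) for each gene and library. The submitters' processing notes name Trim Galore 0.6.4 and kallisto 0.4.6. Estimated counts were rounded here before the fits, and the deposited TPM values entered the limma alternatives only.

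Counts were analysed with edgeR 4.0.16 in R 4.3.3: TMM scaling, filterByExpr (17222 of 55385 genes tested), a quasi-likelihood fit of 4 group means with the replicate number as a block, and Benjamini-Hochberg adjustment over all genes tested. Calls required an adjusted p under 0.05 and no minimum fold. The same fit gave each response and knockdown effect. CPM values were TMM-scaled, and those within a replicate number used a prior count of 2. Alternatives used limma 3.58.1 and DESeq2 1.42.0. The scripts were tested on simulated data. Coordinates are GRCm38 with GENCODE M21 (55144 of the genes matched). 19 symbols sat on more than 1 tested gene, and none of these was in a list.

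The comparison, the gene lists and the named genes were chosen with earlier results of these data known. Named were the called genes, the highest and lowest member of each list and the genes that the study names. 1 result under this rule is not reported here. The genes just outside the threshold and all others were chosen after their values were seen. Fits with GC and length offsets, and DESeq2 without the block, were also added after the data were seen.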

Additional observations from a re-analysis of the deposited data

Results flagged for a closer look

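Arpp21 (0.80), Foxp1 (0.55) and Map3k12 (-0.57) are listed because the difference of their responses to bicuculline between the shRNA groups passed the test of that difference itself, in log2 units.

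Single libraries far from the other 3 of their group were looked for in 232 groups of 4, from 58 genes, and 10 were found. Chance gives about 1 in 20 such groups. With Dnmt3a1-shRNA2 in bicuculline, replicate 2 stood apart for Trim71 (7.63 CPM, others 6.02 to 6.1 CPM), Dnmt1 (55.0 CPM, others 49.4 to 50.2 CPM) and Ciart (4.11 CPM, others 4.55 to 4.6 CPM), and replicate 1 for Fryl (90.4 CPM, others 69.2 to 70.1 CPM). With Dnmt3a1-shRNA2 at baseline, replicate 3 stood apart for Rbm11 (3.27 CPM, others 4.24 to 4.32 CPM) and Slc6a11 (125 CPM, others 160 to 166 CPM). With Control-shRNA at baseline, replicate 3 was apart for Rbm11 (3.92 CPM, others 5.19 to 5.3 CPM) and replicate 2 for Crhbp (39.4 CPM, others 48.6 to 50.3 CPM). With Control-shRNA in bicuculline, replicate 1 was apart for Nppc (27.6 CPM, others 18.3 to 19.0 CPM) and Arc (1080 CPM, others 590 to 652 CPM). For Rbm11, replicate 3 was low in both shRNA groups at baseline.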

How the results depend on the processing

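The count of 3 called genes moved by over 1.5 times in 31 alternatives, and the sign of Arpp21, Foxp1 and Map3k12 was the same in all 34 refits. With the block kept, the count was 16 with DESeq2 size factors (9 higher, 7 lower), 15 with library sizes only (10 higher), 320 of 37314 without the filter, 20 with at least 10 counts in every library, 14 and 16 with voom and limma under TMM and under library sizes, 102 with DESeq2 (73 higher; 5676 genes had no adjusted p), 56 with GC and length offsets, and 0 on log2(TPM + 1) and 0 on log2(TPM + 0.1) with limma (1286 and 1263 at an unadjusted p under 0.05). The fold limit of 0.5 left 3. Fits with 1 library fewer gave 0 to 29, the highest without replicate 3 of Dnmt3a1-shRNA2 in bicuculline, and fits without replicate number 1, 2, 3 or 4 gave 1, 0, 12 and 1. Of the 3 called genes, the fits without number 1, 2, 3 or 4 kept 1, 0, 2 and 0, and Foxp1 was in none of them. The cause of these shifts in the count was not tested.

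The labels do not say what the replicate numbers share. Deviations from the group mean correlated between same-numbered libraries at 0.053 to 0.388 over all genes, and the best match had the same number in 34 of 48 cases. Over genes of at least 10 CPM these were 0.0725 to 0.716 and 36 of 48. As some pairs lay under 0.1 on both sets of genes, the numbers were not taken as a proven pairing. Without the replicate block edgeR called 0 genes, voom with limma 0, edgeR with the offsets 0 and DESeq2 17, with 852, 858, 1036 and 775 genes at an unadjusted p under 0.05 against 1564. These were 4.95%, 4.98%, 6.02% and 4.5% of the genes tested, against 9.08%. The count of intervals within 0.5 stayed within 1.5 times, and the slope across genes moved by less than its spread over replicate numbers, in the alternatives run for them. With library sizes only, the median of all genes went from -0.02 to -0.01. The calls rest on 4 libraries a group, and genes under 10 CPM are limited by depth.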
